A study of Mus musculus with 6 samples.

Results

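The 40 genes described here are innate sensors of the mouse and the proteins that pass on their signals: Toll-like receptors (TLRs) with their co-receptors and adaptors, NOD-like receptors (NLRs), the inflammasome components, and the cGAS, STING and MAVS route of cytosolic nucleic acid sensing. They were taken by name from a list of known sensors, with no cutoff on a measured value but with earlier results of these data known, and all 40 were found among the 26754 genes in the files. RNA came from cells of B16 melanoma tumours grown under the skin of female C57BL/6J mice aged 6 to 8 weeks, selected with magnetic beads against CD8a and labelled as CD8+ T cells. Tumours were taken 7 or 14 days after implantation, with 3 libraries of each day, and no tumour-free or treated group was analysed here. Both groups share the strain, the tumour line and the bead selection, and differ in the day of harvest as labelled. Nothing states whether the 3 libraries of a day came from separate mice or from pools, so p-values measure only the spread between these samples, which may be technical.

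Innate sensors recognise molecules that mark infection or damage. TLRs at the cell surface bind bacterial lipids and proteins, TLRs in endosomes bind nucleic acids, and most of them signal through the adaptor MyD88 and the IRAK kinases to the transcription factor NF-kappaB. NLRs, AIM2 and pyrin act in the cytosol, where they can assemble an inflammasome with the adaptor ASC; caspase-1 then cleaves interleukin-1 beta and gasdermin D, whose fragments form pores in the membrane. Myeloid cells are best known for this machinery, while T cells also use parts of it.

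Promoters of the tested genes with the largest differences are shown first, as far as RefSeq windows were at hand (build GRCm38.p6, 31 of the 40 genes matched). They are the 250 bases before a transcription start, 5′ to 3′ on the strand of the gene. Capitals mark matches, on either strand, to the IRF core AANNGAAA, the GAS element TTCNNNGAA, the PU.1 core GAGGAAGT or the NF-kappaB motif. The Aim2 window (chr1:173420354-173420603, plus strand) and the Myd88 window (chr9:119340019-119340268, minus strand) lie inside the longer spans of their GENCODE gene models. The Nlrc3 window (chr16:3976633-3976882, minus strand) and the Nlrp3 window of the second listed start (chr11:59541319-59541568, plus strand) lie at the ends of theirs.
Aim2: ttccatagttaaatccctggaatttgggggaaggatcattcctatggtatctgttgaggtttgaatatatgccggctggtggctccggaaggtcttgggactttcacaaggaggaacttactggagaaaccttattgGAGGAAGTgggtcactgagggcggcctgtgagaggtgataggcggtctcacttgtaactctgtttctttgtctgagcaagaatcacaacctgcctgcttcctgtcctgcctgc
Myd88: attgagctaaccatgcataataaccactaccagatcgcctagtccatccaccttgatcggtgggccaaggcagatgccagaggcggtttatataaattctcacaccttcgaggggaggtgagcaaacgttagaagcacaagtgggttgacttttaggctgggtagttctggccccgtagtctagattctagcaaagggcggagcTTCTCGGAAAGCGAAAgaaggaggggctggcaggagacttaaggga
Nlrc3: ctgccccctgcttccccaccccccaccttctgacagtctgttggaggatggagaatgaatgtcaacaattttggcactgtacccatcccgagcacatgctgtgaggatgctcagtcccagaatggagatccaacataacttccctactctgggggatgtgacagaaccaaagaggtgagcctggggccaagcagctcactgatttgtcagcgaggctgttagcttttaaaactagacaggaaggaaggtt
Nlrp3: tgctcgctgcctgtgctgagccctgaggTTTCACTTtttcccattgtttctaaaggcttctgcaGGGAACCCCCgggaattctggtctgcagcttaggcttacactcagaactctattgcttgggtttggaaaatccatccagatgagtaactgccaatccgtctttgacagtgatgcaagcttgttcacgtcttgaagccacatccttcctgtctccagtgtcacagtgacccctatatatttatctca
The Aim2 window holds 1 match to the PU.1 core, and the Myd88 window holds a GAS match and an IRF core match that overlap. The Nlrp3 window holds 1 IRF core match and 1 NF-kappaB match, and the Nlrc3 window holds no match to these letters. The window of the first listed Nlrp3 start, not printed here, holds 2 IRF core matches and no NF-kappaB match. Over 300 bases, from 250 before to 50 after each start, 31 of these genes had 40 windows together. The IRF core was found in 12 of the 40 windows and in 23.9% of 32851 windows of all genes. The GAS element was found in 7 windows against 8.3% of all, the PU.1 core in 5 against 3.2%, and NF-kappaB in 6 against 8.46%. Windows of a gene can overlap, and the GAS match of Nlrx1 and the NF-kappaB match of Irak1 were each counted in 2 windows. By gene, the motifs in this order were found in 9, 6, 5 and 5 of the 31 genes. A match is a run of letters only, and binding was not measured.

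The values are RPKM, reads per kilobase of gene and per 1000000 reads in genes, so levels can be compared between genes. Reads assigned to genes numbered 6523019 to 9313078 per library on day 7 and 11385106 to 13316522 on day 14, and a read was seen in 13133 to 13806 genes on day 7 and in 18318 to 19053 on day 14. Between day 7 replicates 1 and 2 the counts agreed nearly within sampling noise (median chi-square ratio 1.11 with reads halved to fragments, where 1 is sampling alone), against 40.9 and 44.4 to replicate 3 and 4.05 to 4.43 between day 14 libraries. They were averaged and counted as 1 sample, so n = 2 on day 7 and n = 3 on day 14 in every mean below. The label "CD8+T" was checked against marker genes. Cd8a itself ranged from 16.4 to 42.3 RPKM on day 7 and from 7.08 to 8.50 on day 14, and Cd3e, a chain of the T cell receptor complex, from 11.2 to 30.9 and from 6.03 to 8.25. The summed RPKM of 10 T cell markers was 517 to 538 on day 7 and 133 to 139 on day 14. That of 10 macrophage and monocyte markers was 791 to 883 and 1290 to 1330, with the receptor Csf1r at 4.21 to 8.27 and 18.8 to 20.1. Of 6 melanocyte markers the sum was 5620 to 5820 and 10300 to 11300, with Mlana at 62.6 to 156 and 262 to 273. The libraries therefore held transcripts that mark cells other than T cells on both days, and their levels moved with the day. In such bulk samples fewer cells of a type and less RNA per cell cannot be told apart.

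Of the 40 genes, 37 reached 1 RPKM in at least 1 library, and 15 had the mean of 20 counts per 1000000 reads (CPM) required for testing. Gasdermin D (Gsdmd) was the 1 gene of the 15 that passed the test, and on the scaling of the authors it fell from day 7 to day 14; per T cell transcript, described further down, its sign turned. The DNA sensor Aim2 and the adaptor Myd88 had differences of similar size in the same direction that missed the threshold. The lipopolysaccharide co-receptor Cd14, too low on day 7 to be tested at 20 CPM, had 0 to 8 reads in the day 7 libraries and 268 to 320 in those of day 14. By comparison, 226 of all 6690 genes tested with limma, 3.38%, had a Benjamini-Hochberg adjusted p under 0.05: 103 were higher on day 14 (1.54%) and 123 lower (1.84%). After scaling by the median of ratios the split was 60 higher and 168 lower. The median log2 fold change on the log2(RPKM + 1) scale was -0.11 over the 15 genes and 0.16 over all tested.

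**Figure D1:**
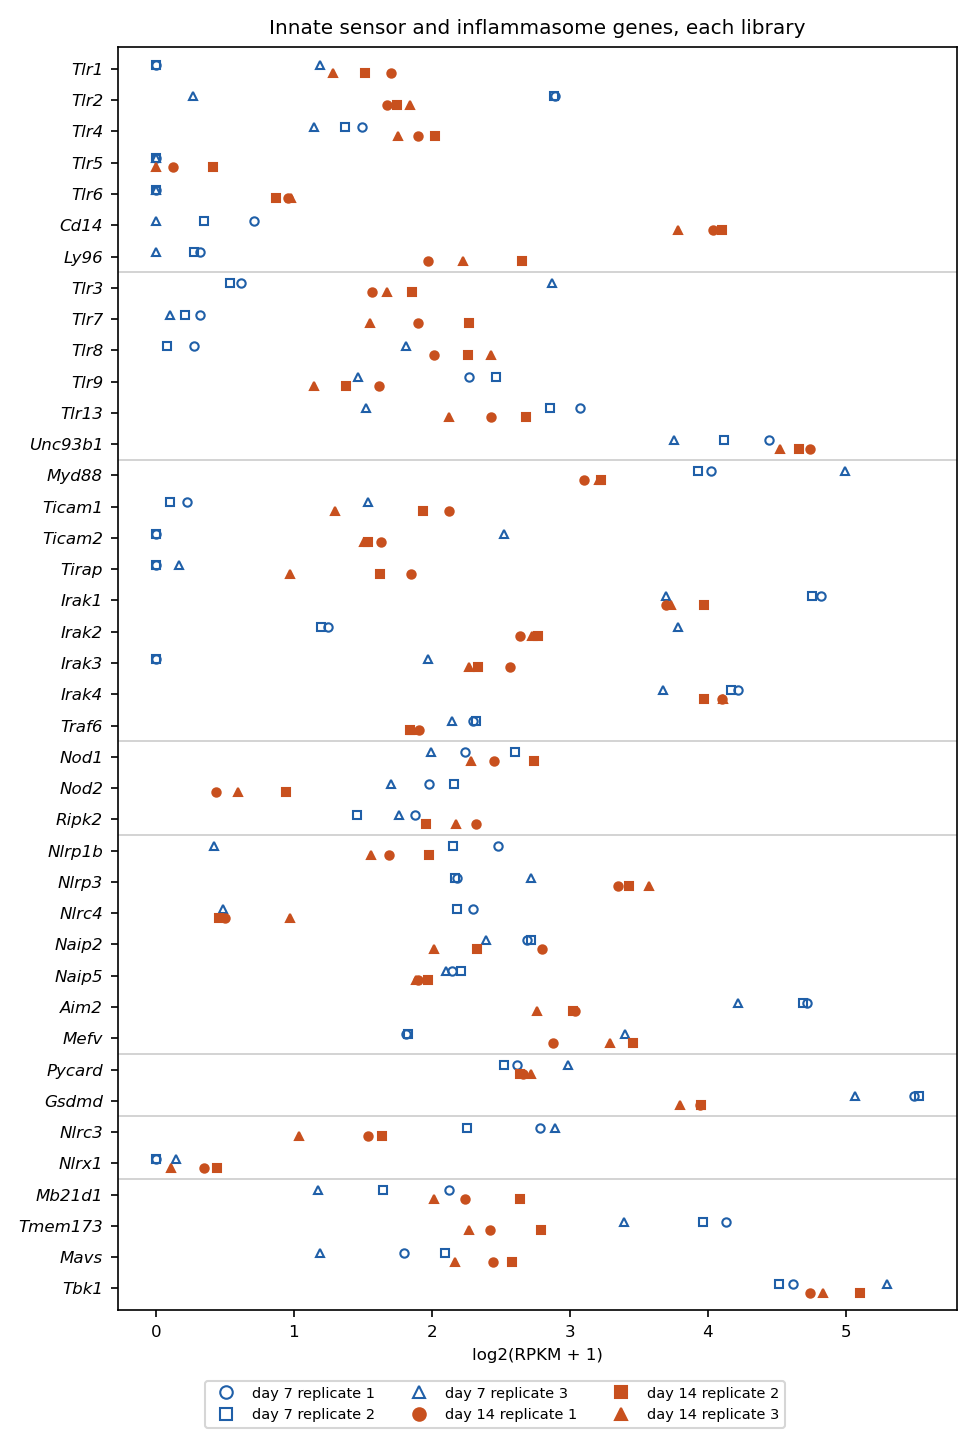
Level of each of the 40 genes in each of the 6 libraries, as log2(RPKM + 1) on the horizontal axis; open blue symbols are day 7, filled orange symbols day 14, and symbol shapes the replicates. Grey lines separate the roles. Gsdmd, Aim2 and Tmem173 lie lower in all 3 day 14 libraries, Cd14 and Ly96 lie higher, and for many genes the day 7 triangle (replicate 3) stands apart from the circle and the square.

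Surface TLRs and their co-receptors were low on day 7 and their summed level was higher on day 14, 8.45 to 9.1 RPKM in day 7 replicates 1 and 2 and 2.7 in replicate 3 against 23.8 to 29.9. Most of the day 14 sum came from Cd14, which hands lipopolysaccharide to TLR4. Cd14 stood at 0.639, 0.273 and 0 RPKM in the day 7 libraries and at 15.4, 16.2 and 12.8 in the day 14 libraries. These are 8, 4 and 0 reads against 276, 320 and 268, so the days were far apart. With the minimum lowered to a mean of 5 CPM the limma log2 fold change of Cd14 was 3.71 (SE 0.55, adjusted p = 0.0285), where 35 of 10911 genes, 0.321%, were called higher. Cd14 passed that minimum through its day 14 libraries alone and so had to differ, and the call ended without day 14 replicate 1 (adjusted p = 0.0712) or replicate 2 (0.0616). Ly96, which encodes MD-2, the subunit of the TLR4 complex that holds lipopolysaccharide, was listed at 0.246, 0.21 and 0 RPKM and at 2.92, 5.3 and 3.68. Tlr4 itself was low on both days, with 1.81, 1.58 and 1.21 RPKM on day 7 and 2.73, 3.07 and 2.37 on day 14. None of these 3 genes overlapped between the days; 27.0% of 22714 genes with a read were likewise higher in every day 14 library.

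The receptors for bacterial lipoproteins did not follow 1 pattern. Tlr1 had no read in day 7 replicates 1 and 2 but 1.28 RPKM in replicate 3, and 1.44 to 2.26 on day 14. Tlr6, which like TLR1 pairs with TLR2, had no read on day 7 and 0.833 to 0.967 RPKM on day 14. Tlr2 stood at 6.41 and 6.38 RPKM in day 7 replicates 1 and 2, at 0.203 in replicate 3 and at 2.19 to 2.59 on day 14. Day 14 therefore lay between the day 7 libraries, and the day 7 mean of 3.30 ± 4.38 (SD, n = 2) describes neither of them. Tlr1 and Tlr6 are close copies whose reads could be split by the counting. Tlr5, the flagellin receptor, did not exceed 0.332 RPKM in any library.

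Among the endosomal TLRs the chaperone Unc93b1, which carries these receptors to endosomes, was the most abundant. It had 20.8, 16.4 and 12.5 RPKM on day 7 and 25.8, 24.3 and 22.0 on day 14, with a limma log2 fold change of 0.62 (SE 0.31, adjusted p = 0.306). The days did not overlap, but the difference did not pass the test. Tlr7, a receptor for single-stranded RNA, was near 0 on day 7 (0.246, 0.158 and 0.0751 RPKM) and at 2.73, 3.82 and 1.93 on day 14. Its relative Tlr8 stood at 0.21 and 0.0599 RPKM in day 7 replicates 1 and 2, at 2.52 in replicate 3 and at 3.04 to 4.38 on day 14. At 5 CPM neither was called (log2 fold changes 1.72 and 1.23, adjusted p = 0.298 and 0.431). Tlr3, the receptor for double-stranded RNA, was also split within day 7. It had 0.53 and 0.454 RPKM in replicates 1 and 2 and 6.3 in replicate 3, with day 14 in between at 1.96 to 2.63. Tlr9, which binds unmethylated DNA, and Tlr13, which in mice binds bacterial ribosomal RNA, overlapped between the days. Tlr9 ranged from 1.76 to 4.51 RPKM on day 7 and from 1.21 to 2.07 on day 14, and Tlr13 from 1.88 to 7.43 and from 3.35 to 5.42.

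Of the 9 adaptors and kinases below the receptors, Myd88 had the largest difference among those tested. Myd88 stood at 15.3, 14.2 and 30.9 RPKM on day 7 and at 7.6, 8.38 and 8.25 on day 14, means of 22.8 ± 11.4 (SD, n = 2) and 8.08 ± 0.41 (SD, n = 3). All day 14 libraries were lower than all day 7 libraries. The limma log2 fold change was -1.31 (SE 0.38, adjusted p = 0.0947), so it missed the threshold, and without day 7 replicate 3, its highest library, the adjusted p was 0.562 (0.0154 to 0.562 over all alternatives). Myd88 was called in 11 of 16 forms of the precision weights that were tried. These forms refit the same samples and cannot change the log2 fold change or its sign. They called 219 to 677 of all genes, so they are not separate support. The gene (chromosome 9, 119335934 to 119341411, GRCm38, minus strand) shares exon bases with Acaa1a on the opposite strand, and the strand setting of the counting is not given in the sources used here.

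Of the other adaptors Ticam1 and Ticam2 split within day 7, while Tirap was near 0 in each day 7 library. Ticam1 encodes TRIF, the adaptor of TLR3, and Ticam2 encodes TRAM, its partner at TLR4. Ticam1 had 0.168, 0.0718 and 1.9 RPKM on day 7 and 1.46 to 3.35 on day 14. Ticam2 had no read in day 7 replicates 1 and 2, 4.76 RPKM in replicate 3 and 1.84 to 2.1 on day 14. Tirap, which brings MyD88 to TLR2 and TLR4, had no read in these same 2 libraries, 0.124 RPKM in replicate 3 and 0.96 to 2.6 on day 14, so here the days did not overlap. Ticam2 and Tirap share exon bases with other genes and are uncertain for that reason, as are Tlr3, Irak1, Irak2, Irak3, Irak4, Pycard, Nlrx1 and Mb21d1.

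The IRAK kinases differed from each other. Irak4, the first kinase of the cascade, stood at 11.8 to 17.6 RPKM on day 7 and 14.7 to 16.3 on day 14 and a log2 fold change of 0.13 (95% interval -0.56 to 0.82), which turned to -0.02 after median-of-ratios scaling. Irak1 stood at 27.2, 26 and 12 RPKM on day 7 and at 12, 14.7 and 12.3 on day 14. Day 7 replicate 3 was thus at the day 14 level. Irak2 was the reverse, with 1.37 and 1.29 RPKM in day 7 replicates 1 and 2, 12.8 in replicate 3 and 5.22 to 5.81 on day 14. The limma adjusted p was 0.563 for Irak1 and 0.892 for Irak2. Irak3, which encodes the inhibitory IRAK-M, had no read in day 7 replicates 1 and 2, 2.92 RPKM in replicate 3 and 3.82 to 4.92 on day 14, above every day 7 library. Traf6, the ubiquitin ligase that IRAKs activate, had a small difference without overlap, 3.92, 4.0 and 3.42 RPKM against 2.76, 2.59 and 2.62 (log2 fold change -0.36, SE 0.42, limma adjusted p = 0.697).

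Of the receptors for peptidoglycan fragments, Nod1 overlapped between the days, with 2.99 to 5.07 RPKM on day 7 and 3.86 to 5.67 on day 14 (log2 fold change 0.28, limma adjusted p = 0.836). Nod2 did not: it stood at 2.95, 3.47 and 2.26 RPKM on day 7 and at 0.35, 0.921 and 0.509 on day 14. Its mean fell short of 20 CPM, and at 5 CPM it was not called (log2 fold change -1.23, SE 0.59, adjusted p = 0.382). Their kinase Ripk2 had 1.75 to 2.67 RPKM on day 7 and 2.88 to 3.99 on day 14. Nod2 and Ripk2 lay apart between the days in opposite directions.

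Among the inflammasome sensors the summed level was 41.1 to 48.8 RPKM on day 7 and 34.1 to 37.2 on day 14 on the scaling of the authors. The most abundant sensor was Aim2 on day 7 and Nlrp3 on day 14, although the day 14 levels of Nlrp3 and Mefv overlapped. Aim2, which binds double-stranded DNA in the cytosol, stood at 25.4, 24.8 and 17.6 RPKM on day 7 and at 7.2, 7.14 and 5.79 on day 14. The lowest day 7 library was well above the highest day 14 library, and the day 7 mean was 3.18 times the day 14 mean (21.3 ± 5.30, SD, n = 2, against 6.71 ± 0.80, SD, n = 3). The limma log2 fold change was -1.52 (SE 0.41, adjusted p = 0.0767), the largest in size among the 15 genes, and it missed the threshold. Aim2 was called in 14 of the 16 forms of the weights, which cannot change its log2 fold change. The gene spans 173350879 to 173466040 on the plus strand of chromosome 1 (GRCm38), and the promoter printed for it is that of a start inside this span.

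Nlrp3, the sensor that responds to potassium efflux and other signs of damage, went the other way. It had 3.53, 3.49 and 5.59 RPKM on day 7 and 9.18, 9.79 and 10.9 on day 14, means of 4.55 ± 1.47 (SD, n = 2) and 9.96 ± 0.88 (SD, n = 3), a 2.19-fold ratio. The days did not overlap. The limma log2 fold change was 1.01 (SE 0.40), with an unadjusted p of 0.0314 and an adjusted p of 0.213, so it was no call. Mefv, which encodes the inflammasome sensor pyrin, stood at 2.52, 2.55 and 9.58 RPKM on day 7 and at 6.37, 9.97 and 8.77 on day 14. Its day 7 replicate 3 was at the day 14 level, and its log2 fold change of 0.60 had a 95% interval from -0.72 to 1.91.

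The NAIP and NLRC4 inflammasome senses flagellin and parts of bacterial secretion systems. Nlrc4 stood at 3.92 and 3.53 RPKM in day 7 replicates 1 and 2, and at 0.399 in replicate 3, next to the day 14 values of 0.412, 0.373 and 0.959. Naip2 overlapped between the days, with 4.24 to 5.58 RPKM and 3.05 to 5.95 (log2 fold change -0.17, limma adjusted p = 0.931). Naip5 was slightly lower in every day 14 library, 3.3 to 3.63 RPKM against 2.7 to 2.92. Nlrp1b, known in some mouse strains as the sensor of anthrax lethal factor, had 4.58, 3.44 and 0.34 RPKM on day 7 and 1.94 to 2.95 on day 14. Naip2 and Naip5 are close copies of each other, and Nlrp1b has close copies too, so reads may have been split between them.

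Below the sensors, the adaptor and the pore gene differed from each other. Gsdmd stood at 44.2, 45.2 and 32.6 RPKM on day 7 and at 14.4, 14.5 and 12.9 on day 14, means of 38.7 ± 8.53 (SD, n = 2) and 13.9 ± 0.94 (SD, n = 3). It had the highest day 7 mean of the 40 genes and the fifth highest on day 14, and the highest day 14 library lay far under the lowest of day 7. The limma log2 fold change was -1.39 (SE 0.30, adjusted p = 0.0306), and Gsdmd was called in all 16 forms of the weights. The call ended without day 7 replicate 3 (adjusted p = 0.107), without day 14 replicate 1 (0.0507) and with a minimum of 5 CPM (0.101) or of a single read (0.205); over all alternatives the adjusted p ranged from 0.00152 to 0.205. Gsdmd lies on chromosome 15 from 75862339 to 75867404 (GRCm38, plus strand), with 1776 exon bases in 11 blocks. Pycard, which encodes ASC, the adaptor that links sensors to caspase-1, overlapped: 5.15, 4.75 and 6.94 RPKM against 5.32, 5.24 and 5.57, with a log2 fold change of -0.11 (95% interval -1.06 to 0.85).

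**Figure D2:**
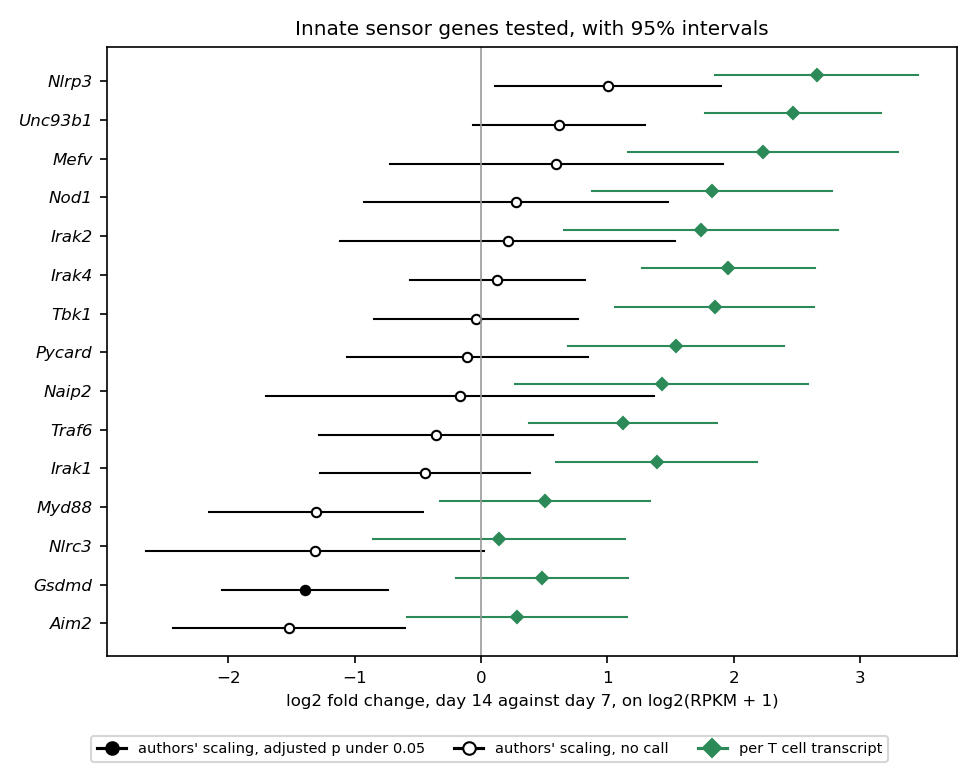
Log2 fold change of the 15 tested genes, day 14 against day 7 on the log2(RPKM + 1) scale, with 95% intervals from limma (n = 2 and n = 3). Black circles use the scaling of the authors, filled where the adjusted p is under 0.05 (Gsdmd, at -1.39); green diamonds are per T cell transcript, where no interval lies below 0 and those of Gsdmd, Aim2, Myd88 and Nlrc3 cross it.

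The 2 other NLRs are known as brakes on innate signalling. Nlrc3, which is also expressed in lymphocytes, stood at 5.89, 3.77 and 6.42 RPKM on day 7 and at 1.9, 2.11 and 1.05 on day 14. The days lay apart, and the limma log2 fold change was -1.32 (SE 0.60, adjusted p = 0.273), no call. Nlrc3 lies on chromosome 16 from 3945007 to 3976632 (minus strand). The mitochondrial Nlrx1 did not exceed 0.36 RPKM.

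Of the genes for cytosolic nucleic acid sensing, Tmem173 was lower and Mavs higher in every day 14 library. Tmem173 encodes STING, which is activated by the product of the DNA sensor cGAS, and stood at 16.5, 14.6 and 9.52 RPKM on day 7 and at 4.35, 5.91 and 3.82 on day 14. Its mean over the 5 samples was under 20 CPM, and at 5 CPM limma did not call it (log2 fold change -1.23, SE 0.56, adjusted p = 0.358). With the 6 libraries counted singly it reached 20 CPM and was called lower (-1.34, limma adjusted p = 0.0272). It passed that minimum through its day 7 libraries alone. That fit also takes the nearly identical day 7 replicates 1 and 2 as separate samples, so the call adds no support. Mb21d1, the gene of cGAS, overlapped between the days, with 1.26 to 3.35 RPKM and 3.04 to 5.23. Mavs, the adaptor of the RNA sensors RIG-I and MDA5, had 2.48, 3.27 and 1.28 RPKM on day 7 and 4.44, 4.97 and 3.5 on day 14. Tbk1, the kinase below both adaptors, was the most abundant of the 40 genes on day 14, at 25.7, 33.4 and 27.5 RPKM, against 23.5, 21.9 and 38.3 on day 7. Its log2 fold change was -0.04 (95% interval -0.85 to 0.77), and its sign turned in several alternatives.

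Taking each library by itself, 13 of the 40 genes lay higher in all 3 day 14 libraries than in all 3 of day 7 (32.5%), against 27.0% of 22714 genes with a read. They were Tlr1, Tlr4, Tlr6, Cd14, Ly96, Tlr7, Tlr8, Unc93b1, Tirap, Irak3, Ripk2, Nlrp3 and Mavs. In the other direction 8 genes lay lower in all 3 day 14 libraries (20%), against 8.59% of genes. These were Myd88, Traf6, Nod2, Naip5, Aim2, Gsdmd, Nlrc3 and Tmem173. The other 19 genes overlapped. A gene with no read in a day 7 library could not lie lower on day 14. Only 13133 to 13806 of all genes had a read in a given day 7 library. The share of 8.59% therefore includes many genes that could not count, and is low as a comparison. The same holds for the shares of all genes lower on day 14 given below. The number of reads and of genes with a read was higher in every day 14 library, as given above, and its part in these counts was not tested.

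Day 7 replicate 3 stood apart from replicates 1 and 2 for many of these genes. Among 36 genes with a mean of at least 1 RPKM, 14 (38.9%) differed more than 3-fold between the mean of replicates 1 and 2 and replicate 3, against 33.5% of 13012 genes at that level. Higher in replicates 1 and 2 were Tlr2, Tlr13, Nlrp1b and Nlrc4, and also Cd14 and Ly96, whose reads were few. Higher in replicate 3 were Tlr1, Tlr3, Tlr8, Ticam1, Ticam2, Irak2, Irak3 and Mefv. Between the highest and the lowest day 14 library 0 of the 36 genes differed so much, against 8.8% of genes. There were 7 genes with no read in day 7 replicates 1 and 2, and of these Tlr5 and Tlr6 had none in replicate 3 either. Without day 7 replicate 3 the counts above became 21 genes higher and 15 lower on day 14 (all genes 40.3% and 20.3%). With replicate 3 as the sole day 7 library they became 20 and 13 (40.7% and 23.6%).

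**Figure D3:**
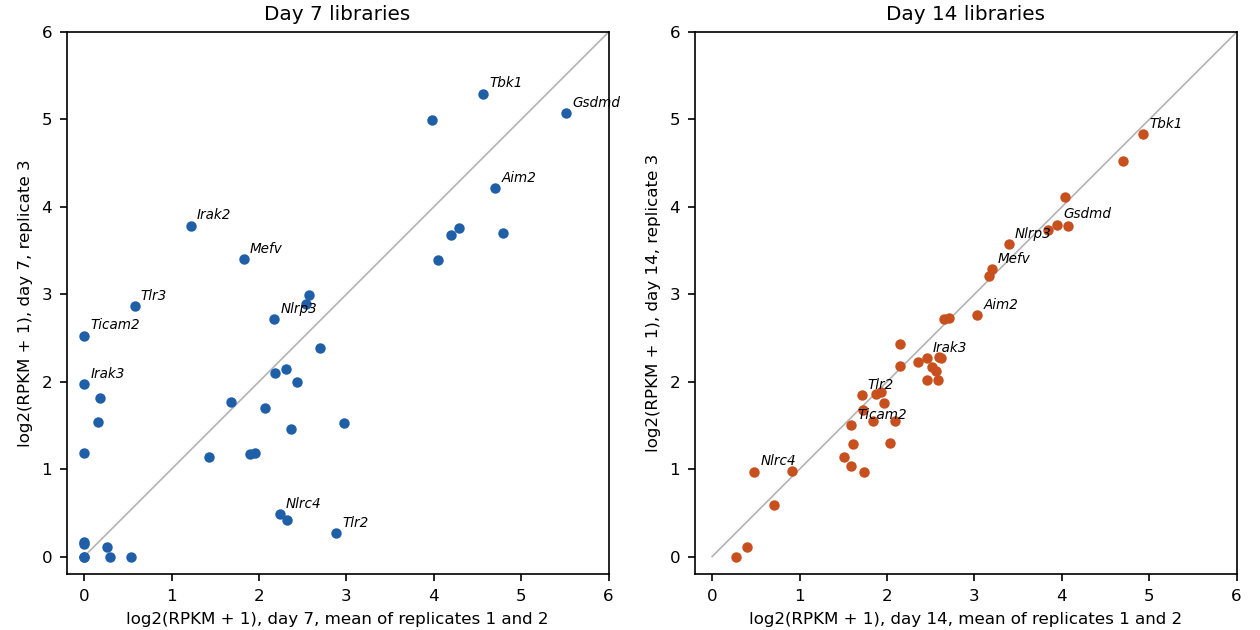
Spread within each day: log2(RPKM + 1) of the 40 genes in replicate 3 against the mean of replicates 1 and 2, day 7 on the left and day 14 on the right, with the line of equality in grey. On day 7, 14 of the 36 genes with a mean of at least 1 RPKM differ more than 3-fold. Examples are Tlr2 and Nlrc4 below the line and Irak2, Tlr3 and Ticam2 above it. On day 14 the points lie close to the line.

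Summed by role on the scaling of the authors, the surface and the endosomal TLR genes were higher in every day 14 library, at 23.8 to 29.9 and 35.1 to 41.6 RPKM against 2.7 to 9.1 and 25.1 to 33.1. The inflammasome sensors, the pair of ASC and gasdermin D, the adaptors and kinases, and the 2 other NLRs were lower in every day 14 library on that scaling. As a percentage of the summed RPKM of 12 T cell genes the first 3 of these groups were instead higher in every day 14 library, the pair for example at 11.5 to 13.2% against 6.94 to 8.04%, and the other NLRs overlapped. The adaptors and kinases summed to 62.6 to 80.6 RPKM on day 7 and 53.1 to 57 on day 14, and the pair to 39.6 to 50 and 18.4 to 19.8. The NOD and the cytosolic nucleic acid groups overlapped. All 40 genes together summed to 252 to 267 RPKM on day 7 and 211 to 247 on day 14. Over the same libraries the summed T cell markers were lower on day 14, with 5 of 8 tested called lower (Trac, Cd2, Lck, Cd8b1, Cd3d). Of the 10 T cell markers Cd5 alone overlapped between the days. Natural killer cell markers were lower too (sum 77.6 to 123 against 13.8 to 16.4). Summed macrophage and monocyte markers were higher, with 4 of 8 tested called (Lyz2, Csf1r, C1qb, C1qa). Of these 10 markers 7 lay higher in every day 14 library, 1 lay lower and 2 overlapped. Adgre1 had a log2 fold change of -0.27 (limma adjusted p = 0.755). Neutrophil markers summed to 14.2 to 19.6 against 51.5 to 65.8. Most of that difference was in S100a9 (3.29 to 8.81 against 36.6 to 49.2); S100a8 and Mmp8 overlapped between the days and Camp was at 0 in all libraries. Without day 7 replicate 3 all 9 of these T cell and macrophage calls ended, and that of Csf1r ended also without any day 14 library. Dendritic cell markers overlapped (5.55 to 13.9 against 8.83 to 10.9), those of plasmacytoid dendritic cells summed to 118 to 139 against 62.5 to 78.0, nearly all of it Bst2 (113 to 138 against 60.6 to 76.0) while Tcf4 and Ccr9 were higher on day 14, and B cell, fibroblast and endothelial markers summed to under 10 RPKM in each library. The 4 erythroid markers summed to 1570 to 2030 RPKM on day 7 and 1680 to 1900 on day 14, with 0 of 4 tested called. The part of these cells in the differences of the innate sensor genes was not tested.

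**Figure D4:**
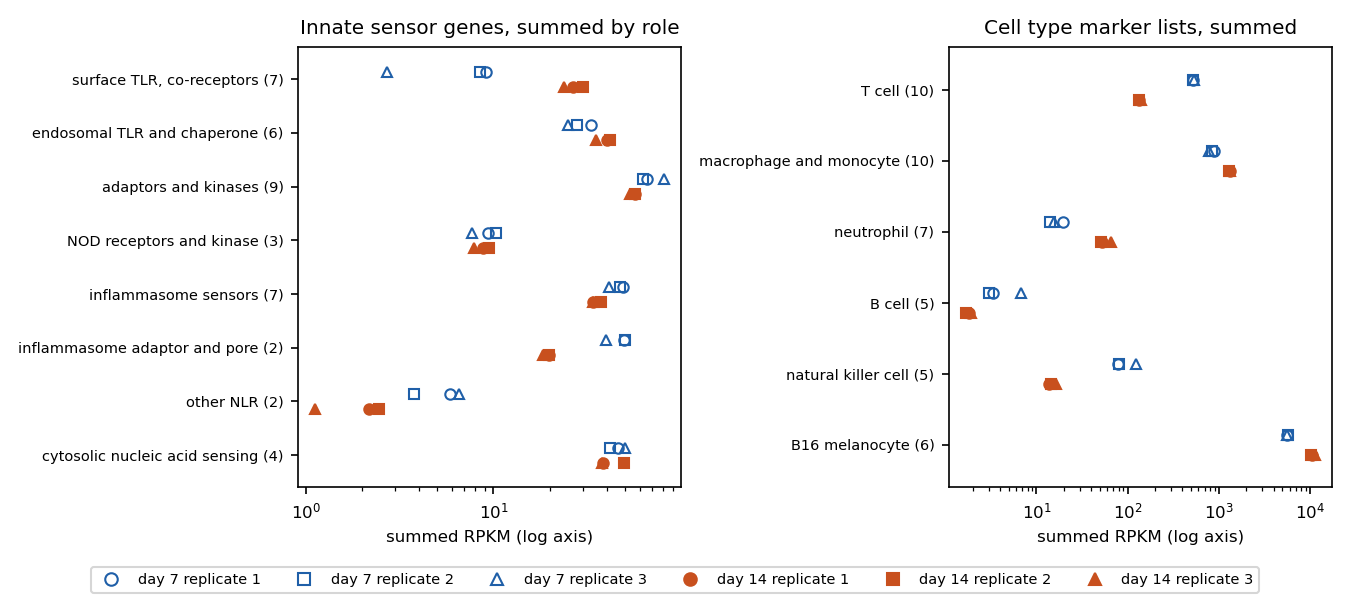
Summed RPKM per library, on a log axis, of the 40 genes by role (left) and of marker gene lists of 6 cell types (right), with the number of genes in parentheses; open blue symbols are day 7 and filled orange symbols day 14. On this scaling of the authors the surface TLR group lies higher on day 14, as do the macrophage, neutrophil and melanocyte markers, and the ASC and gasdermin D pair lies lower, as do the T cell and natural killer cell markers.

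Expressed per T cell transcript, that is, divided by the summed RPKM of 12 T cell genes, the picture of direction was different. The sum of these genes fell to 150 to 160 RPKM on day 14 from 571 to 636 on day 7, which moved the median log2 fold change over every tested gene to 1.93 and that of the 15 genes to 1.54. Gsdmd (0.48), Aim2 (0.28), Myd88 (0.51) and Nlrc3 (0.14), all below 0 on the scale of the authors, were then above 0 with intervals that crossed it, the widest from -0.86 to 1.14. Nlrp3 was at 2.66 and Unc93b1 at 2.47. The 11 tested genes other than those 4 were called higher per T cell transcript, as were 6316 of 6690 genes.

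Genes around these sensors were described from 8 lists of the same pathways, chosen by function with earlier results of these data known. Proteins that help TLRs fold, mature or bind their ligands had 3 of 8 tested genes called, all higher, with a median log2 fold change of 0.84. Ctsl, a protease that cleaves endosomal TLRs, rose from 17.1, 17.2 and 39.3 RPKM to 91.8, 79.1 and 86.1 (log2 fold change 1.68, limma adjusted p = 0.0148). Hsp90b1, the chaperone GP96 that folds TLRs, rose by 0.51 on the log2 scale (limma adjusted p = 0.0247). Cd36, a lipid receptor that works with TLR2, rose by 1.74 (limma adjusted p = 0.0481). Cd36 would not have reached 20 CPM on its day 7 samples alone, so it was tested because of its day 14 level. Of the cytokines and effectors induced by innate sensing, 2 of 6 tested genes were called, both higher (list median 0.91). Among those not called, the log2 fold changes of Ptgs2 (1.58) and Cxcl10 (0.25) were above 0. Those of Tnf (-0.96) and Ccl3 (-0.78) were below 0. The sum over all 16 genes of the list overlapped between the days, at 115 to 221 RPKM against 172 to 179. Nos2, the inducible nitric oxide synthase, rose from 1.11, 1.78 and 2.08 RPKM to 11.7, 13.5 and 12.6 (log2 fold change 2.31, limma adjusted p = 0.0169). Most of the mean that brought Nos2 to the test came from its day 14 libraries, which limits its call in the same way as that of Cd36. Cxcl2, a neutrophil chemokine, rose from 10.7, 7.89 and 25.1 RPKM to 52.7, 57.5 and 55.3 (1.78, adjusted p = 0.0178).

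In 2 further lists the called genes were lower on day 14. Of 7 tested genes of the IRF branch 1 was called: the transcription factor Irf8 fell from 29.6, 30.0 and 33.5 RPKM to 12.6, 14.0 and 13.4 (log2 fold change -1.19, limma adjusted p = 0.0494; list median -0.14). Of 11 tested RIG-I-like and other nucleic acid sensors 1 was called: Zbp1, the sensor of Z-form nucleic acids, fell from 62.9, 64.7 and 79.0 RPKM to 17.7, 22.1 and 23.5 (-1.71, adjusted p = 0.0223; list median -0.08). Leaving out day 7 replicate 3 left 1 averaged sample on day 7, with a spread taken from the trend of all samples. In that fit the calls of Hsp90b1, Cd36, Nos2, Irf8 and Zbp1 ended. Those of Ctsl and Cxcl2 did not, but replicate 3 was their highest day 7 library, so leaving it out widened their differences. Cd36 also lost its call without day 7 replicate 2 or any day 14 library, and Irf8 without day 7 replicate 1 or any day 14 library.

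In the other 4 lists 0 genes were called. The inflammasome effectors had 0 of 7 (median -0.03): Il1b stood at 68.2, 73.8 and 56.6 RPKM on day 7 and at 117, 137 and 121 on day 14 (log2 fold change 0.96, limma adjusted p = 0.0683), and Casp8 at 57.8 to 75.6 and 49.6 to 52.3 (adjusted p = 0.375). The NF-kappaB module had 0 of 13 (median -0.24), with its inhibitor Nfkbia at 29.9 to 42.3 and 35.9 to 46.1 RPKM (adjusted p = 0.784) and Nfkb2 at 20.3 to 31.3 and 19.4 to 24.0 (adjusted p = 0.739). Negative regulators of TLR and interleukin-1 receptor signalling had 0 of 7 (median -0.15), with Tnip1 at 39.0 to 58.9 and 50.8 to 54.5 RPKM (adjusted p = 0.801) and Il1rn, the interleukin-1 receptor antagonist, at 8.16 to 19.2 and 29.0 to 38.1 (adjusted p = 0.102). Further NLR genes had 0 of 2 (median -0.58), Nlrc5 at 28.7 to 36.9 and 17.6 to 19.2 RPKM (adjusted p = 0.168) and Ciita at 6.94 to 7.19 and 4.41 to 6.19 (adjusted p = 0.743). At an unadjusted p under 0.05 limma counted 1251 of all 6690 genes tested and 4 of the 15 innate sensor genes, Gsdmd, Aim2, Myd88 and Nlrp3.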

How the data were processed

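Poly-A RNA of 6 libraries, 3 each of day 7 and day 14, was sequenced with paired ends after a stranded, identifier-tagged preparation, per the labels' protocols. The tools listed in the submitters' processing notes are Trimmomatic (version 0.36), featureCounts and Subread (version 1.5.1), with GRCm38 as the build. Not given in the sources used here are the aligner, the strand setting and the use of the identifiers. The authors deposited RPKM, with the summed exon length in bases of each gene per the file headers. RPKM times length was a whole multiple of 1 step per library in the deposited values (largest deviation 4.08e-05), so reads per gene and CPM could be recovered. Among genes with few reads 80.7% to 92.5% of read numbers were even, so both mates were counted. Of duplicated gene names 2 rows were left out.

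The 40 genes, the pathway lists and the markers were chosen with earlier results of these data known. Genes tested were named whatever their result; untested ones were named with their level. Pathway genes were named where called, at most 4 a list by smallest p, or else the 2 with the highest mean RPKM. limma 3.58.1 in R 4.3.3 was fitted to log2(RPKM + 1), which understates changes of low genes, for the 6690 genes whose mean reached 20 CPM over 5 samples (day 7 replicates 1 and 2 averaged). Each day had precision weights from a quadratic loess trend of its variances on the mean over all samples (span 0.3, variance floor 0.005). Moderated tests with a trend followed, with Benjamini-Hochberg adjustment and a threshold of 0.05. The form of the weights was settled after results of 16 forms, including those of the genes described, had been seen; it is among the strictest. The fit was tested on simulated data. Alternatives changed the scaling, the pseudocount, the minimum level, the weights, the averaging, the test, the pairing and the libraries. Python 3.11.15 was used for levels, promoters and figures.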

Additional observations from a re-analysis of the deposited data

How the results depend on the processing

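On the log2(RPKM + 1) scale, 226 genes in all and 1 of the 40 innate sensor genes were called. Over the forms of the precision weights, added after seeing the data, 219 to 677 genes and 1 to 3 innate sensor genes were called, none of the latter higher; the linear or quadratic trends of the square root, 4th root or logarithm of the variance gave 418, 422, 527, 503, 664, 636, 421, 437, 513, 505, 677 and 653 genes. With weights on the own mean of each day 3 innate sensor genes were called (2 with a linear trend). Without weights 1011 genes and 5 of the innate sensor genes passed (Nlrp3 higher; Gsdmd, Nlrc3, Aim2 and Myd88 lower). With 6 libraries counted singly 1562 and 5 passed (Nlrp3 higher; Gsdmd, Tmem173, Aim2 and Myd88 lower), and with limma-voom on the recovered reads 2145 and 6 (Nlrp3 and Mefv higher; Gsdmd, Nlrc3, Aim2 and Myd88 lower). Nlrp3 would not have reached 20 CPM on its day 7 samples alone, nor Nlrc3 and Tmem173 on those of day 14. They were tested because of the day on which they were high, which limits their calls in these fits. A minimum of 5 CPM left 84 genes, with Cd14 called in place of Gsdmd. No minimum beyond a read left 29 genes and 0 innate sensor genes. In that limma fit 10 of the 40 innate sensor genes had an unadjusted p under 0.05, as did 2807 of all 22714 genes. Leaving out 1 library in turn gave 66 to 237 genes and 0 to 1 innate sensor genes. The lowest count, without day 7 replicate 3, assumes that the lone averaged day 7 sample varies like the day 7 trend of all samples. Per T cell transcript 6326 genes and 11 innate sensor genes were called, and the sign turned for Tbk1 (1.85), Naip2 (1.43), Gsdmd (0.48), Nlrc3 (0.14), Aim2 (0.28), Traf6 (1.12), Pycard (1.54), Myd88 (0.51) and Irak1 (1.39), as the T cell genes used for scaling were themselves lower on day 14. Elsewhere the sign turned for values near 0, and the cause was not tested: Irak4 with median-of-ratios scaling (-0.021), Tbk1 with libraries counted singly (0.083) and with limma-voom (0.118), and Pycard with limma-voom (0.046). Leaving out 1 library, Irak4 ranged from -0.129 (without day 7 replicate 3) to 0.174, Tbk1 from -0.146 to 0.326 (without day 7 replicate 3; 0.036 without day 14 replicate 1), Pycard from -0.133 to 0.1 (without day 7 replicate 3) and Naip2 from -0.372 to 0.016 (without day 14 replicate 3). The fit with a replicate block, libraries counted singly, called 1153 genes and 5 innate sensor genes, with Tbk1 at 0.083. Both fits with libraries counted singly take day 7 replicates 1 and 2, which differed by little more than sampling noise, as separate samples. They therefore overstate the number of day 7 samples, and their counts of called genes are not comparable with the main fit. The replicate numbers were not shown to pair the libraries, since the deviations of same-numbered libraries correlated at -0.02, -0.01 and -0.04. The cause of the other differences in these counts was not tested. Genes under a mean of 20 CPM, such as Nod2 and Tlr7, rest on fewer reads; the part of depth in their missing calls was not tested.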
